A study of Gallus gallus with 12 samples.

Results

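Most of the genes described here make, break down or read the cyclic nucleotides cAMP and cGMP, and they were measured in the chick pineal gland in darkness and after light. They were taken from the array annotation by gene symbol: adenylyl cyclases (ADCY), guanylyl cyclases (GUCY), genes whose symbol begins with PDE and a digit, the regulatory and catalytic subunits of protein kinase A (PRKAR, PRKAC), protein kinase G (PRKG) and CREB genes with a digit, with PDE6G left out. This gave 45 of the 13009 genes that the annotation names, measured by 114 probe sets. PDE6D, PDE12, PDE4DIP and the CREB3L genes came in by symbol alone and are counted with the rest. Each gene was represented by its probe set with the highest mean over all arrays. Of the 45 genes, 39 passed the filter on low signal and were tested, and 6 did not (PDE4C, PDE7A, PDE8B, PDE11A, PRKG2 and CREB5).

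Adenylyl cyclases make cAMP and guanylyl cyclases make cGMP. Phosphodiesterases break both down, and each family has its own preference for one or the other. Protein kinase A, protein kinase G, cyclic nucleotide-gated channels and transcription factors such as CREB carry the signal onward. In the avian pineal gland, whose cells are themselves photosensitive and hold a clock, cAMP raises the activity of AANAT, the enzyme that sets the nightly rhythm of melatonin, and light lowers cAMP. In photoreceptor cells cGMP is the messenger of phototransduction, and the PDE6 enzyme breaks it down in light.

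The glands came from male chicks of 8 days, entrained for 7 days to 12 h of light and 12 h of darkness and then placed in constant darkness. Light lasted 1 h and began at 1 of 3 circadian times (CT): CT6 falls in the subjective day, CT14 soon after the start of subjective night and CT22 near its end. Dark controls of each time received no pulse. The 6 groups had 2 arrays each, 12 in all, and each array held 9 micrograms of total RNA from 6 pooled glands. No group carried a gene alteration. The 2 arrays of a group are separate biological samples per the labels, and their number limits the precision of every value.

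Values are given as log2 of the normalized probe set intensity, and a difference of 1 on that scale is a 2-fold difference. Differences carry the standard error of the limma fit, which shares its estimate of spread over all groups. Adjusted p-values (Benjamini-Hochberg) cover the 23063 probe sets in that fit, and a gene passed below 0.05. A permutation of 2 arrays against 2 cannot give a p-value under 0.333, so no exact test of 1 group against another could pass. Intensities of different probe sets are on different scales, and levels are therefore compared within a gene only.

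Of 14 pineal marker genes 10 were on the array and all 10 passed the filter, with TPH1, ASMT, OTX2 and ISL1 above the 99th percentile of all probe sets. The ratio of the 3′ to the 5′ actin control probe set, a sign of RNA quality, reached 4.67 and 3.95 at CT14 in darkness, against 3.28 and 3.09 after light. In the other 8 arrays it lay between 3.62 and 4.23. Where CT14 is compared, this ratio moves with light. Summed intensities of the pineal markers ran from 24933 to 25850 in CT14 dark arrays and from 27347 to 27732 in CT14 light arrays, against 27918 to 28889 in CT22 dark and 23293 to 24837 in CT22 light arrays. At CT22 4 of the 10 pineal markers were lower after light (AANAT, DDC, PDC and ISL1) and 3 of 8 choroid plexus markers were higher (FOLR1, KL and ENPP2), with choroid plexus sums of 14052 to 14744 in darkness and 15921 to 15929 after light. OTX2 is in both of these lists, so their sums share a gene. Of all probe sets 1.67% passed under light at CT14 and 3.64% at CT22. Among 6 fibroblast markers COL1A1 was higher after light at CT14 and COL1A1 and COL1A2 at CT22, with sums at CT14 of 8342.1 to 9096.1 in darkness and 9428.8 to 9881.2 after light. At CT22 4 of the 6 lay higher, and the fibroblast sums overlapped, at 9125.3 to 9655.7 in darkness and 9574.3 to 10124 after light. At CT22 3 of 5 glia markers passed (GFAP, MBP and OLIG2, 1 higher and 2 lower). Glia sums there were 1467.7 to 1491.9 in darkness and 1197.1 to 1213.8 after light. Of 6 endothelial markers only CLDN5 passed at CT22, being higher, while 3 of the 6 lay higher and their median was -0.01. At CT14 OLIG2 was the only glia marker to pass, being lower, while 3 of the 5 lay higher and their median was 0.01. Glia sums at CT14 overlapped, at 1162.8 to 1507.6 in darkness and 1275.1 to 1362.2 after light. No erythrocyte or neuron marker passed under light, but at CT14 the erythrocyte sums were 8859.5 to 9537.1 in darkness and 6629.3 to 7094.4 after light, and the neuron sums 2949.9 to 3249.4 and 3367 to 3393.8. The part of these shifts in the results below was not tested, and in whole glands fewer cells of a type cannot be told apart from less RNA per cell.

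The first question was whether light changed the genes of the pathway and at which time. PDE10A, which breaks down both cAMP and cGMP, rose after light at CT14 and CT22. ADCY1, an adenylyl cyclase stimulated by calcium and calmodulin, rose at CT14. At CT6 none of the 39 tested genes passed, where 0.221% of all probe sets did, and 3 of 39 had an unadjusted p under 0.05 in the limma fit against 9.94% of all probe sets. At CT14 2 of 39 passed, both higher (5.13%, against 1.67% of all probe sets and 1.14% for higher calls). At CT22 1 of 39 passed, again higher (2.56%, against 3.64% and 1.73%). Each gene stands here by its brightest probe set, while the background counts every tested probe set.

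Averaged over the 3 times, 4 of 39 genes passed and all 4 were higher after light (10.3%, against 3% of all probe sets in either direction and 1.78% in that direction). They were PDE10A, PDE4D, ADCY1 and PDE6B. The median change of the 39 genes was 0.03 at CT6, 0.05 at CT14 and 0.06 at CT22, beside 0.00, 0.00 and -0.01 over all probe sets. Light and dark arrays did not overlap for 15 genes at CT6 (38.5%, against 40.9% of all probe sets), for 19 at CT14 (48.7%, against 43.6%) and for 19 at CT22 (48.7%, against 47.9%). For 4 genes they were apart at all 3 times in the same direction, ADCY1, PDE4D and PDE10A being higher and PRKAR1A lower (10.3%, against 3.72%).

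**Figure D1:**
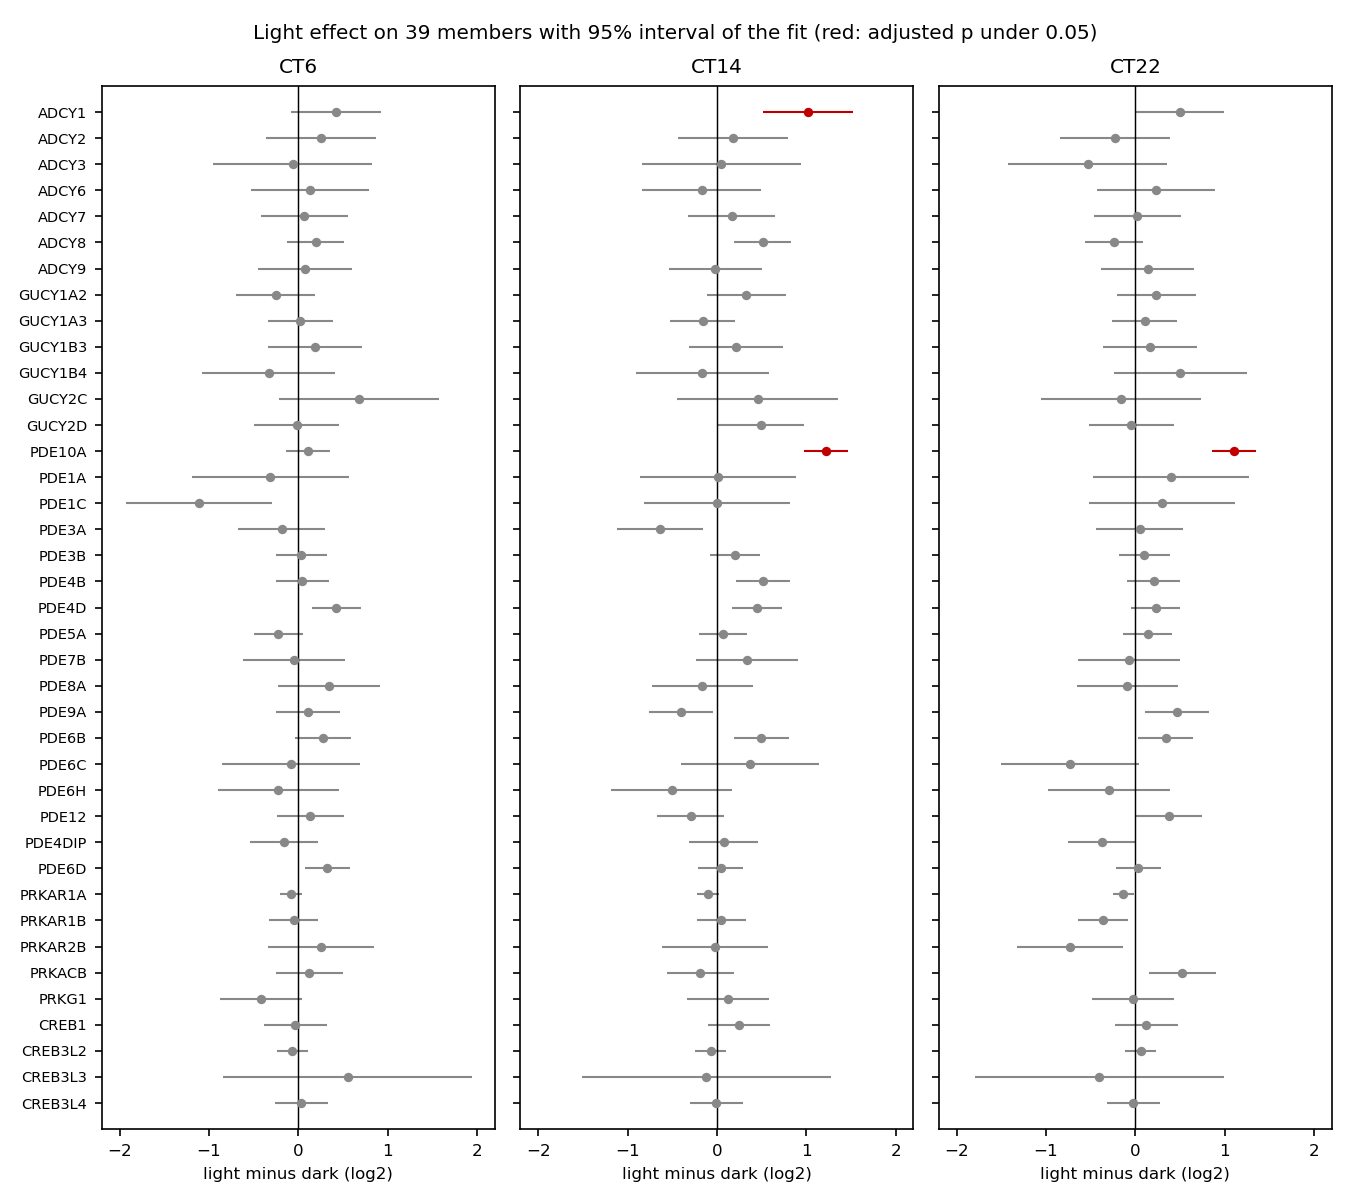
Light minus dark difference (log2, horizontal axis) of the 39 tested genes at CT6, CT14 and CT22, ordered by role, with the 95% interval of the fit. PDE10A and ADCY1 at CT14 and PDE10A at CT22 are red because their adjusted p lay under 0.05, and all other points are grey.

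Among the 7 adenylyl cyclases ADCY1 was the only one to pass in a light comparison. Its dark arrays read 5.92 and 5.24 at CT6, 4.82 and 5.07 at CT14 and 5.27 and 5.22 at CT22. After light they read 6.00 and 6.01, then 6.14 and 5.78, then 5.74 and 5.73. Light arrays thus lay above dark arrays at every time, though the first CT6 dark array came within 0.1 of them, and the light level differed little between times while the dark level was lowest at CT14. The light effect was 1.02 ± 0.23 at CT14 (2.02-fold, adjusted p = 0.0460), against 0.42 ± 0.23 at CT6 (adjusted p = 0.582) and 0.49 ± 0.23 at CT22 (adjusted p = 0.304). The average of the 3 was 0.64 ± 0.13 (adjusted p = 0.0174).

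The call of ADCY1 at CT14 was lost in 15 of 22 other analyses, among them the removal of any single array other than the CT6 dark arrays, with values from 0.84 to 1.20 when 1 array was left out. With the actin ratio as a covariate it was 0.63 ± 0.47 (adjusted p = 0.910). The average call of ADCY1 was lost in 6 of 22 other analyses. It was lost when the first CT14 light array (0.59) or the second CT22 dark array (0.64) was left out. No filter, no variance trend and removal of all CT14 arrays also lost it. Adjusting for the actin ratio lost it by the widest margin, at 0.49 ± 0.21 (adjusted p = 0.376). ADCY1 had 2 further tested probe sets, which gave 0.86 and 0.86 at CT14 and -0.16 and -0.18 at CT22, none past the threshold.

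The other 6 adenylyl cyclases did not pass under light. ADCY8, also stimulated by calcium and calmodulin, gave 0.19 ± 0.15 at CT6, 0.51 ± 0.15 at CT14 (adjusted p = 0.120) and -0.24 ± 0.15 at CT22. Its 2 CT14 dark arrays were the lowest of the 12 for that gene. The difference between its CT22 and CT14 light effects was -0.75 ± 0.21 (adjusted p = 0.0877). ADCY2, ADCY3, ADCY6, ADCY7 and ADCY9 ranged from -0.53 to 0.26 over the 3 times, and the 95% interval of ADCY7, an isoform known to respond to G protein beta-gamma subunits, ran no further from no change than 0.651, its upper end at CT14.

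No guanylyl cyclase passed in any of the comparisons. The soluble enzyme, the receptor for nitric oxide, was represented by GUCY1A2, GUCY1A3, GUCY1B3 and GUCY1B4, whose light effects ran from -0.33 to 0.50. GUCY1A3 and GUCY1B3, which code for its alpha and beta subunits, are neighbours with no protein-coding gene between them in the RefSeq annotation. GUCY1A3 moved by 0.02 ± 0.17, -0.16 ± 0.17 and 0.11 ± 0.17 at CT6, CT14 and CT22, and GUCY1B3 by 0.18 ± 0.25, 0.21 ± 0.25 and 0.17 ± 0.25. Of the membrane enzymes, GUCY2D, known as a photoreceptor guanylyl cyclase, gave 0.50 ± 0.22 at CT14 (adjusted p = 0.334). GUCY2C, the guanylin receptor of the intestine, gave 0.68 ± 0.42 at CT6 (adjusted p = 0.621) and had intervals reaching 1.58.

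PDE10A had the clearest response of the 11 tested phosphodiesterases outside the PDE6 family. Its dark arrays read 7.31 and 7.34 at CT6, 6.51 and 6.45 at CT14 and 7.14 and 6.98 at CT22. After light they read 7.37 and 7.50 at CT6, 7.64 and 7.76 at CT14 and 8.23 and 8.09 at CT22. The arrays of a group lay within 0.2 of each other, the CT14 dark arrays were the lowest of the 12 and the CT22 light arrays the highest. In deposited intensity units the CT14 dark arrays read 76.1 and 83.3 and the CT14 light arrays 197 and 213.

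PDE10A rose by 1.22 ± 0.11 after light at CT14 (2.34-fold, adjusted p = 5.09e-05) and by 1.10 ± 0.11 at CT22 (2.15-fold, adjusted p = 1.36e-04). At CT6 the difference was 0.11 ± 0.11 (adjusted p = 0.807), with a 95% interval from -0.14 to 0.36. The average over the times was 0.81 ± 0.07 (adjusted p = 6.66e-06). The CT22 and average calls held in all 22 other analyses. The CT14 call held in all but 1 of them, the limma fit with the actin ratio as a covariate, which gave 1.08 ± 0.23 (adjusted p = 0.205). Its limma p before adjustment was 5.69e-04.

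The light response of PDE10A depended on time, and it was the only gene of the 39, each read by its brightest probe set, to pass that test (2.56%, against 1.35% of all probe sets; adjusted p = 0.00842). The response was larger at CT14 than at CT6 by 1.11 ± 0.16 (adjusted p = 0.0152) and larger at CT22 than at CT6 by 0.99 ± 0.16 (adjusted p = 0.0284). These single differences passed for 1 of 39 genes each, against 0.113% and 0.247% of all probe sets. Between CT22 and CT14 the response of PDE10A differed by -0.12 ± 0.16 (adjusted p = 0.782), and none of the 39 genes passed there, against 2.26% of all probe sets (6 of 39 and 15.5% at an unadjusted limma p under 0.05). The time dependence did not pass without a variance trend (adjusted p = 0.120) or with the actin covariate (adjusted p = 0.0568). On the deposited scale it passed (adjusted p = 0.0359), but neither single difference did, with 1.22 between CT14 and CT6 (adjusted p = 0.0761) and 0.85 between CT22 and CT6 (adjusted p = 0.201).

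**Figure D2:**
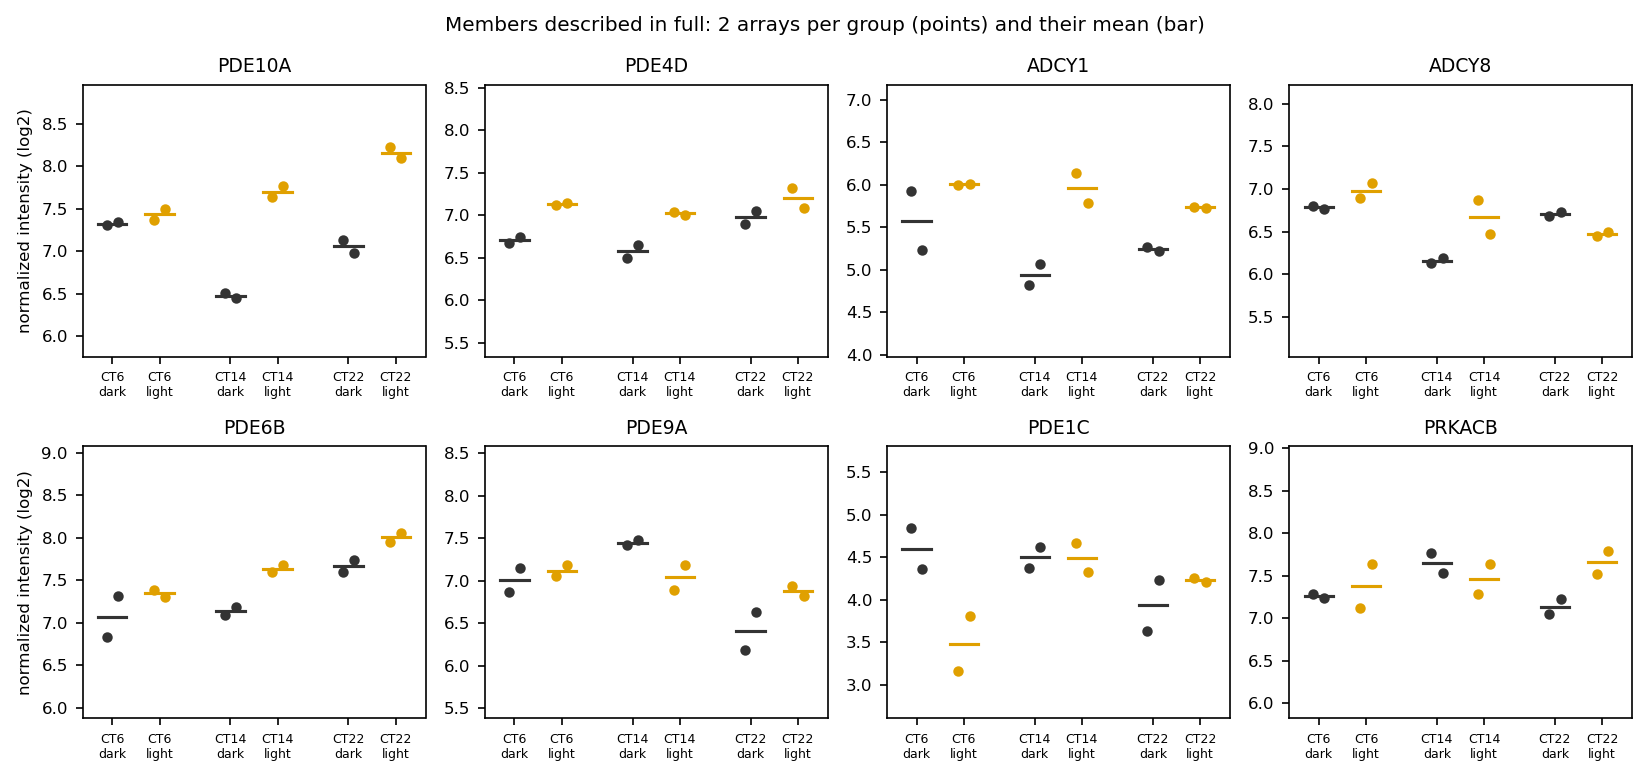
Normalized intensity (log2) of 8 genes described in full, each array a point and each group mean a bar, with dark groups in black and light groups in orange. PDE10A falls to 6.45 and 6.51 in CT14 darkness and reaches 8.09 and 8.23 after light at CT22.

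The array holds 3 further probe sets of PDE10A, all dimmer than the first. They gave 0.65 ± 0.18, 0.91 ± 0.54 and 0.23 ± 0.40 at CT14 and 0.45 ± 0.18, 0.42 ± 0.54 and 1.15 ± 0.40 at CT22. All 6 values lay above 0, and none passed the adjusted threshold. For the gain in response from CT6 to CT14 the last of them gave -0.40 (adjusted p of the time dependence 0.655), opposite to the first probe set. It read 4.62 and 4.68 after light at CT6 and 4.20 and 3.76 after light at CT14.

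**Figure D3:**
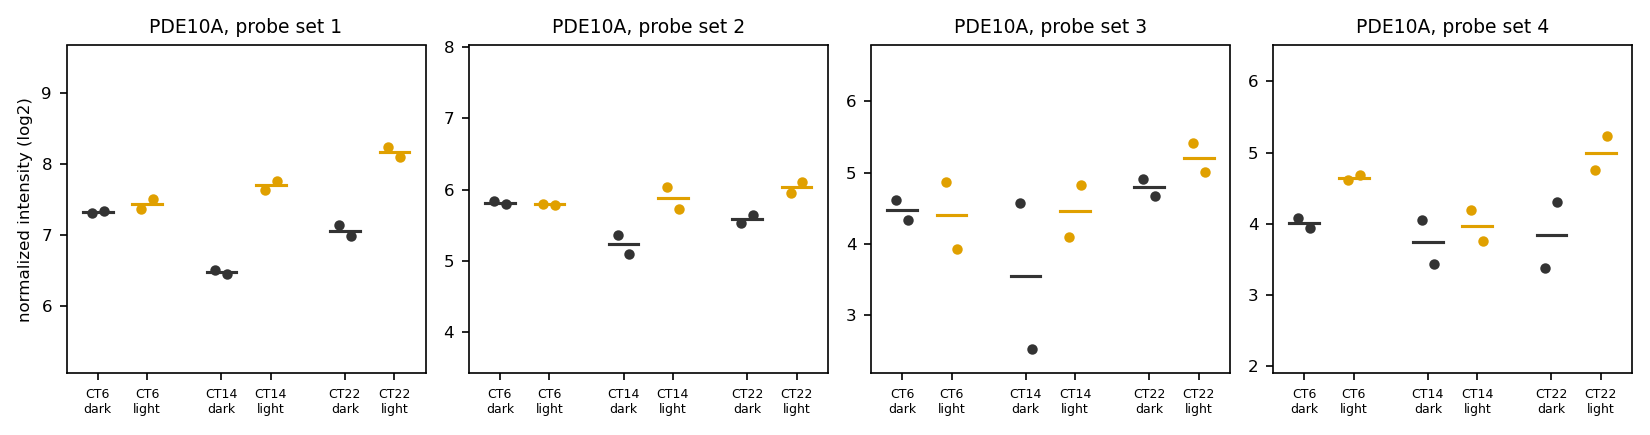
Normalized intensity (log2) of the 4 probe sets of PDE10A in the 6 groups, each array a point and each group mean a bar, ordered by mean intensity. The CT14 dark arrays of the brightest probe set lie at 6.51 and 6.45, while those of the third lie far apart at 4.58 and 2.53.

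PDE4D and PDE4B belong to the family that breaks down cAMP only. PDE4D read 6.68 and 6.74 in CT6 darkness and 7.12 and 7.14 after light, 6.50 and 6.65 against 7.04 and 7.00 at CT14, and 6.90 and 7.06 against 7.32 and 7.09 at CT22. Light arrays lay above dark arrays at each time, by the least at CT22. The single differences were 0.42 ± 0.13 at CT6 (adjusted p = 0.247), 0.45 ± 0.13 at CT14 (adjusted p = 0.114) and 0.23 ± 0.13 at CT22 (adjusted p = 0.416).

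As an average over the times PDE4D rose by 0.37 ± 0.07 (1.29-fold, adjusted p = 0.0147). That call was lost on the deposited scale (0.37, adjusted p = 0.0568), with the actin covariate (0.29, adjusted p = 0.345), without the CT14 arrays (0.33, adjusted p = 0.105) and without the first CT22 dark array (0.34, adjusted p = 0.0575). Its 2 further tested probe sets gave 0.31 and 0.31 for the average (adjusted p = 0.0593 and 0.259), neither past the threshold. PDE4B gave 0.05 ± 0.14, 0.52 ± 0.14 (adjusted p = 0.0904) and 0.21 ± 0.14 at CT6, CT14 and CT22 and did not pass.

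PDE1C, an enzyme that calcium and calmodulin stimulate, was among the 2 genes with the smallest p at CT6, beside PDE4D. It read 4.84 and 4.36 in darkness and 3.16 and 3.81 after light, a difference of -1.12 ± 0.38 (adjusted p = 0.312), while at CT14 the difference was -0.00 ± 0.38 and at CT22 it was 0.29 ± 0.38. Its CT6 light arrays are near the filter limit of 3.73. PDE9A, which is specific for cGMP, gave 0.11 ± 0.17 at CT6, -0.41 ± 0.17 at CT14 (adjusted p = 0.285) and 0.47 ± 0.17 at CT22 (adjusted p = 0.153). The test of its time dependence gave an adjusted p of 0.155.

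The remaining phosphodiesterases did not pass under light. PDE3A, an enzyme that breaks down cAMP and is inhibited by cGMP, gave -0.64 ± 0.23 at CT14 (adjusted p = 0.211). PDE3B of the same family and PDE5A, which is specific for cGMP, were the most narrowly bounded, with 95% intervals inside 0.5 of no change at all 3 times. The bound of PDE5A is that of its brightest probe set, which read 6.94 and 7.07 in CT6 darkness and 6.83 and 6.72 after light. Its further tested probe sets went the other way at CT6, none past the threshold. The first of them read 6.66 and 6.83 in darkness and 7.22 and 6.91 after light (adjusted p = 0.605). PDE1A, PDE7B and PDE8A ranged from -0.31 to 0.40 over the 3 times.

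The PDE6 genes code for the enzyme of rods and cones. PDE6B, the rod beta subunit, read 6.83 and 7.32 in CT6 darkness, 7.10 and 7.18 in CT14 darkness and 7.60 and 7.74 in CT22 darkness. After light it read 7.39 and 7.30, then 7.59 and 7.68, then 7.95 and 8.06. Light arrays were higher at CT14 and CT22 and overlapped the dark arrays at CT6. The average light effect was 0.37 ± 0.08 (1.29-fold, adjusted p = 0.0266), and the single effects were 0.27 ± 0.14, 0.50 ± 0.14 and 0.34 ± 0.14, none of which passed.

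The average call of PDE6B was lost in 11 of 22 other analyses. Among these were 7 that each left out 1 array (either CT6 light array, the first CT14 dark array, either CT14 light array, the first CT22 dark array or the second CT22 light array), with adjusted p from 0.0516 to 0.0879. PDE6C, the cone catalytic subunit, gave -0.73 ± 0.36 at CT22 (adjusted p = 0.323), and PDE6H, the cone inhibitory subunit, gave -0.50 ± 0.32 at CT14 (adjusted p = 0.517). PDE6D, which carries prenylated proteins and is no phosphodiesterase, gave 0.32 ± 0.12 at CT6 (adjusted p = 0.354). PDE12, an enzyme that acts on oligoadenylates, and PDE4DIP, an anchor for PDE4D, ranged from -0.37 to 0.37.

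No kinase subunit passed in any comparison. PRKACB, a catalytic subunit of protein kinase A, read 7.05 and 7.22 in CT22 darkness and 7.52 and 7.79 after light, a difference of 0.52 ± 0.17 (adjusted p = 0.130). The groups were apart at CT22 and overlapped at CT6 and CT14. Further tested probe sets of PRKACB gave 0.01 ± 0.13 (adjusted p = 0.976) and 0.24 ± 0.16 (adjusted p = 0.513) at CT22. The regulatory subunits, which hold the catalytic subunits inactive until cAMP binds, all had values below 0 at CT22, with PRKAR1A at -0.13 ± 0.06 (adjusted p = 0.246), PRKAR1B at -0.36 ± 0.13 (adjusted p = 0.151) and PRKAR2B at -0.74 ± 0.27 (adjusted p = 0.181). PRKAR1A had the smallest standard error of the 39 genes, and its 12 arrays lay between 10.73 and 10.99. PRKG1, the cGMP-dependent kinase, gave -0.42 ± 0.21 at CT6 (adjusted p = 0.549).

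CREB1, the transcription factor that protein kinase A phosphorylates, gave -0.03 ± 0.16, 0.25 ± 0.16 and 0.12 ± 0.16 at CT6, CT14 and CT22. CREB3L2, CREB3L3 and CREB3L4 belong to the branch of membrane-bound factors that are cleaved under stress of the secretory pathway. CREB3L2 and CREB3L4 had intervals inside 0.5 of no change at all times, and CREB3L3, with a standard error of 0.65, had an interval reaching 1.94 at CT6. The bound of CREB3L2 is that of its brightest probe set. A dimmer one read 4.51 and 4.39 in CT22 darkness and 5.21 and 4.86 after light (adjusted p = 0.394). Another overlapped there, at 4.82 and 4.47 in darkness and 4.26 and 4.78 after light. Over all 39 genes, each read by its brightest probe set, the intervals of all 3 light effects lay within 1 of no change for 27 genes. They lay within 0.5 for 5 of these (CREB3L2, CREB3L4, PRKAR1A, PDE3B and PDE5A). For the other 12 genes the interval at some time reached beyond a 2-fold difference.

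**Figure D4:**
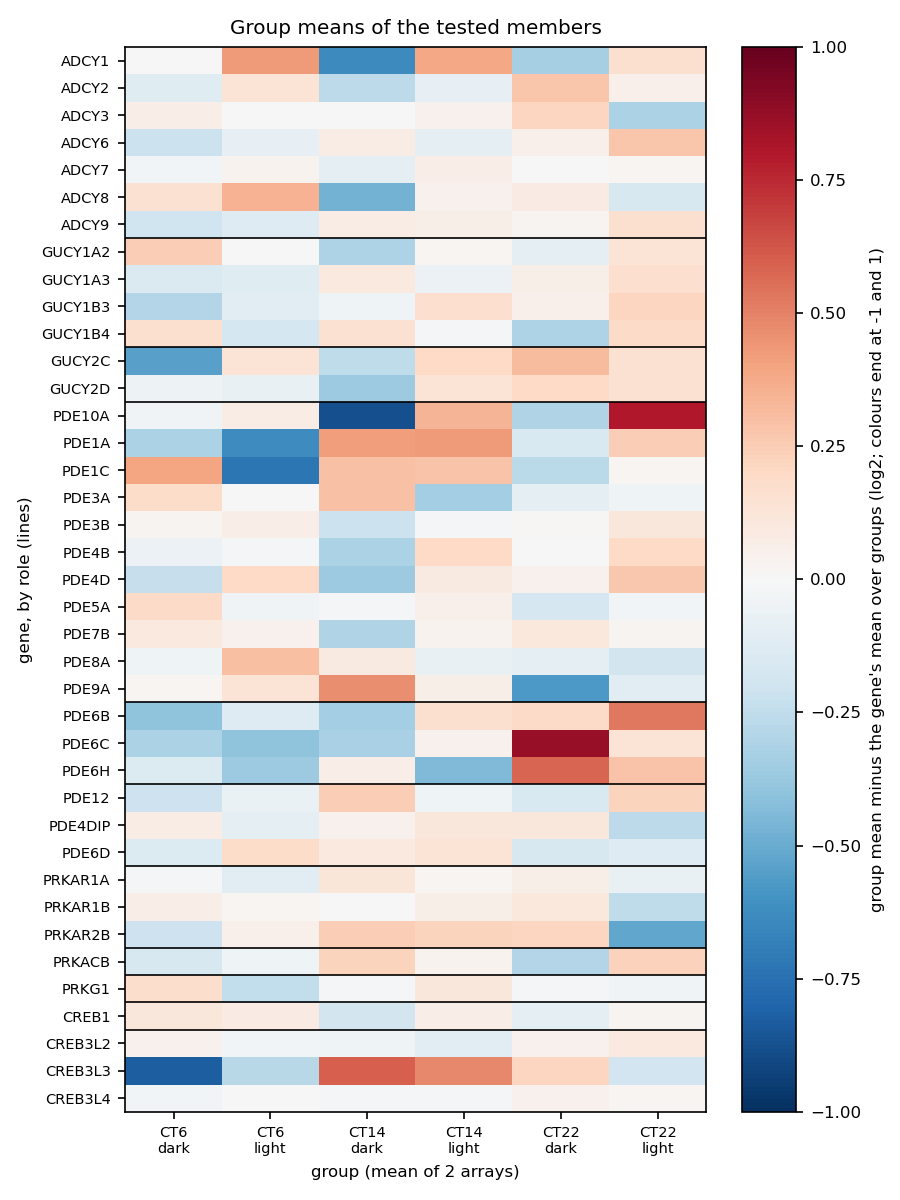
Group means of the 39 tested genes in the 6 groups (columns), each as the difference from the gene's own mean over the groups in log2 units, with lines between roles. Blue is lower and red higher, and the PDE10A row is bluest in CT14 darkness and reddest after light at CT22.

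The second question was whether the genes varied with time of day in darkness. PDE10A, PDE9A, ADCY8 and PDE6B passed the test over the 3 dark groups, 4 of 39 genes (10.3%, against 6.43% of all probe sets). PDE10A and ADCY8 were lowest at CT14, PDE9A was highest at CT14 and lowest at CT22, and PDE6B was highest at CT22. These comparisons use the same CT14 dark arrays as the light effect at CT14, so a low CT14 dark level enters both. From CT6 to CT14 2 of 39 genes passed, both lower (against 3.46% of all probe sets and 2.12% for lower calls), and from CT14 to CT22 4 of 39 passed (against 6.54%). Between CT6 and CT22 in darkness none of the 39 passed, against 1.11% of all probe sets (6 of 39 and 11.4% at an unadjusted limma p under 0.05). Over the 3 dark groups 6 of 10 pineal, 3 of 8 choroid plexus and 3 of 6 fibroblast markers passed. So did 2 of 5 neuron and 1 of 5 glia markers, against 6.43% of all probe sets. Pineal, fibroblast and neuron sums were lowest in CT14 darkness, without overlap, while choroid plexus sums were highest there but overlapped CT6. Neuron sums were 3618.8 to 3927 at CT6, 2949.9 to 3249.4 at CT14 and 3497.2 to 3657.1 at CT22. The part of these shifts was not tested.

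PDE10A fell by 0.85 ± 0.11 from CT6 to CT14 (1.80-fold lower, adjusted p = 0.00133) and rose by 0.58 ± 0.11 from CT14 to CT22 (adjusted p = 0.00799). Its test over the 3 dark groups (adjusted p = 0.00157) passed in all 22 other analyses. In its 3 further probe sets CT14 minus CT6 was -0.59, -0.93 and -0.27, none past the threshold.

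PDE9A read 6.86 and 7.15 in darkness at CT6, 7.42 and 7.48 at CT14 and 6.19 and 6.63 at CT22. The 3 dark groups did not overlap. It fell by 1.04 ± 0.17 from CT14 to CT22 (2.05-fold lower, adjusted p = 0.00209; test over 3 groups, adjusted p = 0.00554). That test did not pass without the first CT22 dark array (difference -0.81, adjusted p = 0.0524) or without a variance trend (adjusted p = 0.0603). The further probe set of PDE9A gave -0.86 ± 0.29 (adjusted p = 0.103).

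ADCY8 read 6.81 and 6.76 in darkness at CT6, 6.12 and 6.19 at CT14 and 6.69 and 6.73 at CT22. Its CT14 arrays lay apart from both other times, which differed by 0.07 ± 0.15 with CT6 the higher. ADCY8 was 0.63 ± 0.15 lower at CT14 than at CT6 (1.54-fold, adjusted p = 0.0369) and 0.55 ± 0.15 higher at CT22 than at CT14 (adjusted p = 0.0435). The test over the 3 groups (adjusted p = 0.0351) was lost in 9 of 22 other analyses, 6 of which each left out 1 of the dark arrays (adjusted p from 0.0675 to 0.192).

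PDE6B rose by 0.53 ± 0.14 from CT14 to CT22 in darkness (adjusted p = 0.0435). Its test over the dark groups (adjusted p = 0.0358) was lost in 10 of 22 other analyses, 7 of which left out 1 array (the second CT6 light array or any array of CT14 or CT22 darkness or of CT14 light, adjusted p up to 0.232). PDE6C, by comparison, gave 1.20 ± 0.36 from CT14 to CT22 (adjusted p = 0.0670) and PDE6H gave 0.52 ± 0.32 (adjusted p = 0.410). Both their values and that of PDE6B lay above 0. On the deposited scale, where the median of all probe sets moved by 0.37 between the CT14 and CT22 dark groups, 8 genes passed the dark test, adding GUCY2D, PDE4B, PDE4D and PDE6C, and 18.2% of all probe sets passed it.

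Over dark and light groups jointly, PDE10A, PDE9A, ADCY8 and PDE6B again passed the test for time of day (10.3%, against 7.39% of all probe sets). By pair of times, 1 of 39 genes passed between CT6 and CT14 (against 3.37%), 3 between CT14 and CT22 (against 6.19%) and 1 between CT6 and CT22 (against 3.38%). PDE6B was higher at CT22 than at CT6 by 0.63 ± 0.10 (1.55-fold; test over the times, adjusted p = 0.00344), and this call held in all 22 other analyses. PDE10A was 0.52 ± 0.08 higher at CT22 than at CT14 (adjusted p = 0.00121). PDE9A was 0.60 ± 0.12 lower (1.51-fold, adjusted p = 0.00660), and its test over the times was lost without the first CT22 dark array (-0.49, adjusted p = 0.0664), without the second CT22 light array (-0.57, adjusted p = 0.0548), on the deposited scale (-0.35, adjusted p = 0.103) and without a variance trend (adjusted p = 0.0798). ADCY8 was 0.47 ± 0.11 lower at CT14 than at CT6 (adjusted p = 0.0280), and its test was lost in 14 of 21 other analyses.

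In all, 6 of the 39 genes passed in at least 1 of the 7 comparisons (15.4%, against 12.3% of all probe sets). Of 60 further probe sets of the tested genes 35 passed the filter, and 2 of them passed the test under light at CT14 (against 1.67% of all probe sets). None passed at CT6 or CT22 (against 0.221% and 3.64%), 1 passed on average (against 3%) and 2 passed for time dependence (against 1.35%). In darkness 2 passed (against 6.43%) and over dark and light 1 passed (against 7.39%). One measures ADCY8 and gave 0.88 ± 0.19 at CT14 (adjusted p = 0.0368) and -1.04 ± 0.19 for CT14 minus CT6 in darkness (adjusted p = 0.00948), the same directions as the brighter ADCY8 probe set. Its light effect depended on time (adjusted p = 0.0312), with a difference of -1.54 ± 0.27 between CT22 and CT14 (adjusted p = 0.0119). It read 4.98 and 5.35 in CT14 darkness and 6.12 and 5.97 after light. The dimmest tested ADCY8 probe set went the other way under light at CT14, with -0.35 ± 0.43 (adjusted p = 0.780). It gave 0.68 ± 0.60 between the CT22 and CT14 light effects and -0.73 ± 0.43 for CT22 minus CT14 in darkness, also opposite and not past the threshold. For CT14 minus CT6 in darkness it gave -0.06 ± 0.43. The probe sets of ADCY8 thus do not all agree.

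The other further probe set that passed under light at CT14 measures CREB1 and was singled out after its values were seen. It read 2.44 and 3.02 in CT14 darkness against 5.23 and 4.90 after light, and in the other 8 arrays it lay between 4.15 and 5.49. Both CT14 dark values are below the filter limit of 3.73, so the size of the differences below rests on low signal. The light effect at CT14 was 2.33 ± 0.32 (5.04-fold, adjusted p = 0.00156) and CT14 minus CT6 in darkness was -2.59 ± 0.32 (adjusted p = 6.89e-04). Its light effect also depended on time (adjusted p = 0.0250). The 2 brighter CREB1 probe sets gave 0.25 and 0.31 for light at CT14 and did not pass. For CT14 minus CT6 in darkness they gave -0.30 and -0.29, also not past the threshold. In these 2 comparisons the probe sets of CREB1 thus share a direction but disagree widely in size. The 2 CT14 dark arrays, the only low ones, had actin ratios of 4.67 and 3.95, against 3.28 and 3.09 in the CT14 light arrays. In the CT6 and CT22 arrays the ratio lay between 3.62 and 4.23. The part of RNA quality in this CREB1 difference was not tested.

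To place these genes in their pathway, 100 further genes were listed by role: receptors and ligands, G proteins and their regulators, activators of guanylyl cyclase, other proteins that bind cyclic nucleotides, kinase inhibitors and anchors, transcription partners and genes known to be raised by cAMP. Of these 81 were on the array, 59 were tested and 23 passed in at least 1 of the 7 comparisons (39%, against 12.3% of all probe sets). The list was drawn up with earlier results of these data known. Each listed gene is read by its brightest probe set, while the background counts every tested probe set. The shares of the list and of its parts are therefore descriptions and no test of the pathway. Their median light effect was -0.06 at CT6, -0.02 at CT14 and -0.08 at CT22. Under light 2 passed at CT6, both lower (AKAP9 and SIK1; 3.39%, against 0.221% of all probe sets), 5 at CT14, with 2 higher and 3 lower (8.47%, against 1.67%), and 11 at CT22, with 1 higher and 10 lower (18.6%, against 3.64% of all probe sets).

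Among the 8 tested receptors and ligands the ligand gene ADCYAP1, which codes for PACAP, a peptide that activates adenylyl cyclase, rose at CT14. It read 3.69 and 4.05 in darkness and 5.52 and 5.38 after light, a difference of 1.58 ± 0.35 (2.99-fold, adjusted p = 0.0376). These dark arrays are near the filter limit of 3.73, the first below it. At CT22 its light arrays lay far apart, at 5.87 and 4.60. Averaged over the times ADCYAP1 rose by 1.09 ± 0.20 (adjusted p = 0.00803). NPR3, a natriuretic peptide receptor without a cyclase domain, fell by 0.54 ± 0.11 at CT22 (adjusted p = 0.0187). DRD4, a dopamine receptor that lowers cAMP, fell by 0.73 ± 0.15 from CT14 to CT22 in darkness (adjusted p = 0.00991). Each was the only call among the 8 genes in its comparison (12.5%). All probe sets gave 1.67% at CT14, 3.64% at CT22, 3% on average and 6.54% from CT14 to CT22 in darkness.

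Of 12 tested G protein genes, RGS4, which speeds the inactivation of G proteins, fell by 0.60 ± 0.12 after light at CT22 (adjusted p = 0.0178). GNAO1 and GNAI1, alpha subunits of the inhibitory class, passed the dark test, GNAO1 being lowest and GNAI1 highest at CT14. RGS4 was 1 of 12 at CT22 (8.33%, against 3.64% of all probe sets), and these were 2 of 12 in darkness (16.7%, against 6.43%). Of 7 tested proteins that bind cyclic nucleotides, 3 passed the dark test (42.9%, against 6.43% of all probe sets), and all 3 were channel subunits. CNGA1, the rod channel subunit, fell by 1.35 ± 0.21 from CT14 to CT22 in darkness (adjusted p = 0.00186), CNGA3, the cone channel subunit, rose by 0.82 ± 0.14 (adjusted p = 0.00429), and CNGB3, its partner subunit, rose by 0.54 ± 0.13 (adjusted p = 0.0253) after a fall of 0.98 ± 0.13 from CT6 to CT14 (adjusted p = 0.00120). None of these 3 channel genes passed under light at any time. BVES, a membrane protein of the same list that binds cAMP, fell after light by 0.61 ± 0.14 at CT22 (adjusted p = 0.0338) and by 0.45 ± 0.08 on average (adjusted p = 0.00776).

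Of 14 tested kinase inhibitors and anchors, 3 passed under light at CT22, all lower (21.4%, against 3.64% of all probe sets). They were AKAP6, AKAP7 and AKAP11, which hold protein kinase A at its sites of action. These were lower by 0.52, 0.50 and 0.51 (adjusted p = 0.0163, 0.00696 and 0.0399). The median light effect of the 14 genes at CT22 was 0.14, so the list as a whole did not fall. Of the 8 tested transcription partners, SIK1, a kinase that cAMP induces and that restrains the CREB coactivators, fell at all 3 times. Its dark arrays read 8.77 and 8.62, then 8.84 and 8.81, then 9.35 and 9.49, and its light arrays 8.06 and 8.13, then 7.99 and 8.10, then 8.71 and 8.41. Every SIK1 light array lay below both dark arrays of its time, with differences of -0.60 ± 0.11, -0.78 ± 0.11 and -0.86 ± 0.11. CREM, a relative of CREB1, passed only the test of time of day over dark and light groups.

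Of the 9 tested genes known to be raised by cAMP, 4 passed under light at CT22 (44.4%, against 3.64% of all probe sets). AANAT, BDNF, a neurotrophin gene, and EGR1, an early response factor, fell by 0.83 ± 0.10, 1.38 ± 0.20 and 1.46 ± 0.13 (adjusted p = 5.56e-04, 0.00181 and 2.72e-05), while DIO2, which activates thyroid hormone, rose by 0.69 ± 0.10 (adjusted p = 0.00150). At CT14 BDNF fell by 1.46 ± 0.20, EGR1 fell by 0.83 ± 0.13 and DIO2 rose by 0.52 ± 0.10. AANAT read 9.22 and 9.52 in CT14 darkness and 9.45 and 9.59 after light, a difference of 0.15 ± 0.10 that did not pass. DUSP1, a phosphatase of MAP kinases, passed under light only as an average over the times, where it was 0.26 ± 0.06 higher after light (adjusted p = 0.0433). The light effect differed between times for AANAT (adjusted p = 0.0144) and EGR1 (adjusted p = 0.0397).

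**Figure D5:**
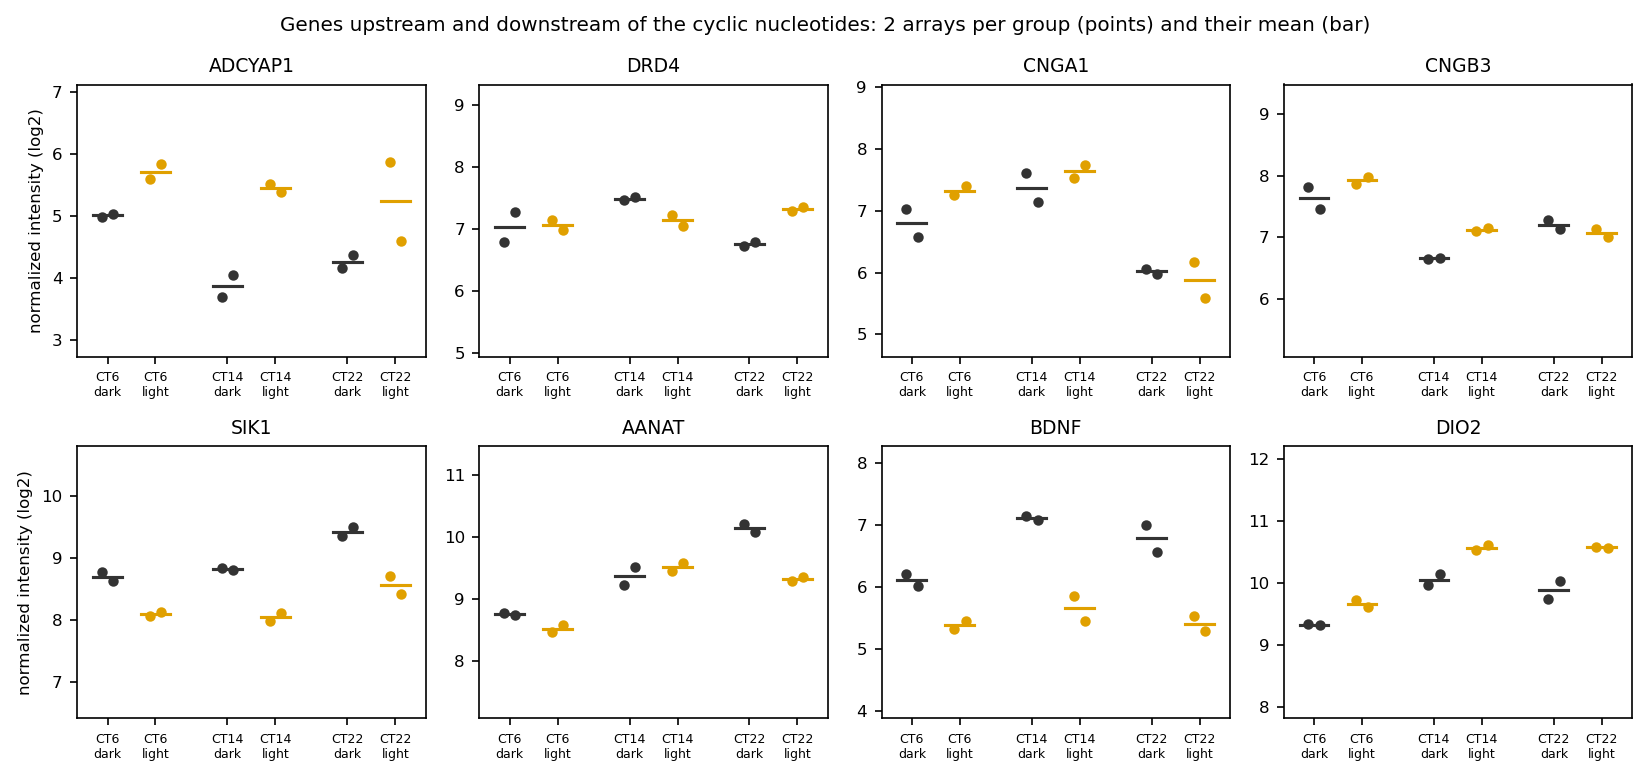
Normalized intensity (log2) of 8 listed genes that act before or after the cyclic nucleotides, each array a point and each group mean a bar, with dark groups in black and light groups in orange. SIK1 and BDNF arrays lie lower after light at all 3 times, although BDNF did not pass at CT6, and AANAT reaches 10.2 and 10.1 in CT22 darkness against 9.28 and 9.36 after light.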

How the data were processed

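Pineal RNA was hybridised to an Affymetrix chicken array, 12 arrays in 6 groups of 2. The authors deposited 1 linear intensity per probe set and array, and the summary software is not given in the sources used here. Array medians ran from 20.1 to 28.9, and 6.24% of values lay under 1. Genes were named through the platform annotation, with names checked in RefSeq's table. No genome was used, and no sequences or coordinates are given.

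Values were taken to log2 and quantile normalized over 38535 probe sets, which hides a change shared by most probe sets. The 96 controls were then left out and values under 1 set to 1. Probe sets whose mean exceeded the 40th percentile, log2 3.73, were fitted in limma 3.58.1 (R 4.3.3) with 6 group means, 6 residual and 7.28 prior degrees of freedom and a variance trend. Replicates correlated at 0.931 to 0.942. In data simulated for the CT14 light effect over 23063 probe sets, 12 of 67 planted changes of 0.58, 32 of 67 of 1 and 55 of 66 of 2 were recovered, with 4 false calls.

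The members, lists and tests were chosen with earlier results of these data known. Genes described in full were those past the threshold in any of the 7 comparisons and the 2 with the smallest p in each. Alternatives were the deposited scale, median centring, other filters, an added constant of 16, no variance trend, a replicate block, the actin ratio, the groups compared alone, other probe sets and each array left out. Normalization without controls and removal of the CT14 arrays were added after the data were seen. Arrays of equal replicate number showed no shared deviation: deviations of same-numbered arrays correlated between -0.028 and 0.028, and 0 of 15 pairs of groups passed 0.1. Whether such samples were collected as sets cannot be told from these values.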

Additional observations from a re-analysis of the deposited data

Results flagged for a closer look

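The light effect on PDE10A differed between times by a test of the difference itself. It was larger at CT14 than at CT6 by 1.11 ± 0.16 and larger at CT22 than at CT6 by 0.99 ± 0.16 on the log2 scale. Neither difference passed on the deposited scale, with 1.22 (adjusted p = 0.0761) and 0.85 (adjusted p = 0.201) in the limma fit. Both rest on 2 arrays per group and on the brightest of 4 probe sets. The dark level of PDE10A was lower at CT14 than at CT6 by 0.85 ± 0.11. Its mean level after light was 7.44 at CT6, 7.70 at CT14 and 8.16 at CT22. The light groups were not tested against each other.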

How the results depend on the processing

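Counts of cyclic nucleotide genes past the threshold were 0, 2 and 1 for light at CT6, CT14 and CT22, 4 for the average, 1 for time dependence, 4 for time of day in darkness and 4 over dark and light. The deposited scale gave 8 in darkness and 7 over both, where 18.2% and 19.3% of all probe sets passed. No filter gave 1 at CT14, 2 for the average and 2 in darkness. No variance trend gave 1 at CT14, 2 for the average, 0 for time dependence, 1 in darkness and 2 over both. The actin covariate gave 0 at CT14, 1 for the average and 0 for time dependence. The arrays of the groups compared alone gave 1 at CT14. Without the CT14 arrays, added after seeing the data, the average gave 1 and the test over both gave 1. Leaving out 1 array gave 0 at CT6, 1 to 3 at CT14, 1 at CT22, 2 to 4 for the average, 1 for time dependence, 1 to 4 in darkness and 2 to 4 over both. Over all 23063 probe sets it gave 23 to 50 at CT6, 159 to 416 at CT14, 234 to 832 at CT22 and 473 to 634 for the average. For time dependence it gave 73 to 375, in darkness 755 to 1478 and over both 1205 to 1605. For the other settings, apart from the deposited scale, no share over all probe sets is given here. Their moved counts therefore cannot be told apart from a move over the whole array. The replicate block, for numbers not known to pair the samples, gave 1 at CT14 and moved no other count by over 1.5 times. A further PDE10A probe set reversed the gain in light response from CT6 to CT14, at -0.40. The cause of these moves was not tested. With 2 arrays a group, changes of 2-fold or less were often missed in the simulation, where 32 of 67 planted 2-fold changes were recovered.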
